A study of Mus musculus with 17 samples.

Results

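Messenger RNA was measured in 17 libraries of adult mouse hippocampus, and 48 genes by which microglia and their states are recognised were followed among 55450 counted genes. The 48 genes were taken as a named list and were split by role into 16 homeostatic genes, 16 genes of activated microglia and 16 general myeloid genes that mark the cells in either state. The split follows the known role of each gene, but the members and lists were chosen with earlier results of these data known. All 48 genes were among the 17615 that passed the filter on low counts.

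The control sgLacZ group (5 libraries) came from sham control mice, and the epileptic sgLacZ (6 libraries) and epileptic sgKcna1 (6 libraries) groups from mice given kainic acid in the right amygdala, a glutamate receptor agonist that sets off status epilepticus and later spontaneous seizures. Every group, the controls included, received adeno-associated viruses that carry a guide RNA and a Cas9 without cutting activity fused to an activator of transcription, and later a diet with doxycycline, which switches the activator on. In sgKcna1 the guide is directed at the promoter of the potassium channel gene Kcna1, which dampens neuronal firing, and in sgLacZ at a bacterial gene. By the study's methods the epilepsy model was made in C57BL/6J mice of both sexes, and virus was injected in the right ventral hippocampus after kainic acid. The activator was expressed from a promoter that needs a second protein, the transactivator. The transactivator was driven from a Camk2a promoter to bias expression towards excitatory neurons, and this promoter is not active in microglia. Control mice with sgKcna1 and mice without virus were not analysed here. Any response of microglia to the virus injection itself, and whether it was alike in all groups, was therefore not tested.

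Microglia are the resident macrophages of the brain. In the healthy brain they keep up a surveying state that depends on signals from neighbouring cells, such as colony stimulating factor 1 and interleukin 34 acting on Csf1r, fractalkine acting on Cx3cr1, and transforming growth factor beta. After injury, seizures or protein deposits they can lose part of this homeostatic programme and take up another one, in which the lipid receptor Trem2 signals through its adaptor Tyrobp and genes for phagocytosis, lysosomes and lipid handling are raised.

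The libraries held 11839240 to 28311328 reads in genes. Levels are given in CPM, the reads of a gene relative to the TMM-scaled total of its library, and 3 reads stand for 0.106 to 0.253 CPM. The targeted gene Kcna1 had medians of 34.6 CPM in control, 27.6 in epileptic sgLacZ and 19.1 in epileptic sgKcna1 libraries, with 13.9 to 132 in the last, and did not pass between the epileptic groups (log2 fold change 0.32, SE 0.47, edgeR adjusted p = 0.706), so the groups go by their labels. The estimate lay above 0 although the median was lower in epileptic sgKcna1 libraries, which reached 132 CPM. By quantitative PCR in mice taken after EEG recording, the study found more Kcna1 in hippocampi injected with sgKcna1 than in the contralateral ones. It reported no clear increase of Kcna1 by RNA-Seq. In all genes, 3 libraries were more often at an end of their group than the others, epileptic sgLacZ replicates 4 and 5 and epileptic sgKcna1 replicate 12, and each is named where it bears on a value. Epileptic sgLacZ replicate 4 had low counts of short transcripts, and epileptic sgKcna1 replicate 12 was the shallowest library, with 41.5% of its reads unmapped against at most 27.7% in the control group.

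The defining microglial markers were present in every library. P2ry12, the ADP receptor that guides microglial processes, lay between 26.4 and 40.6 CPM over the 17 libraries, and Tmem119, a membrane protein of resident microglia, between 17.1 and 36.1. Scaled to the length of the transcript, Apoe had by far the largest amount, with 2121 CPM per kb in controls, but Apoe is made mostly by astrocytes. The cathepsin gene Ctss followed with 110 CPM per kb, then Tyrobp with 46.5, Ctsz with 38.6 and Trem2 with 25.5. At the other end were Itgax with 0.0646 CPM per kb, Tlr7 with 0.312 and Clec7a with 0.491.

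Apoe, Lpl, Spp1, Axl, Itgb5 and Entpd1 are made by other brain cells as well, so in tissue RNA their counts are not those of microglia alone. In bulk tissue, fewer microglia and less RNA per microglial cell cannot be told apart. Markers of other immune cells were low in all groups. The 12 markers of border macrophages and monocytes summed to 10.4 to 21.2 CPM in control, 9.61 to 18.8 in epileptic sgLacZ and 7.76 to 16.0 in epileptic sgKcna1 libraries. The 7 neutrophil markers summed to at most 2.58 CPM and the 8 lymphocyte markers to at most 3.13 in any library, and the neutrophil marker Ly6g was at 0 reads in all 17 libraries. No border macrophage marker passed the test in any comparison of the groups (edgeR, 11 of 12 tested). Between the epileptic sgLacZ and control libraries 1 of them, Mrc1, had an unadjusted p under 0.05, as did 34.7% of all tested genes.

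**Figure D1:**
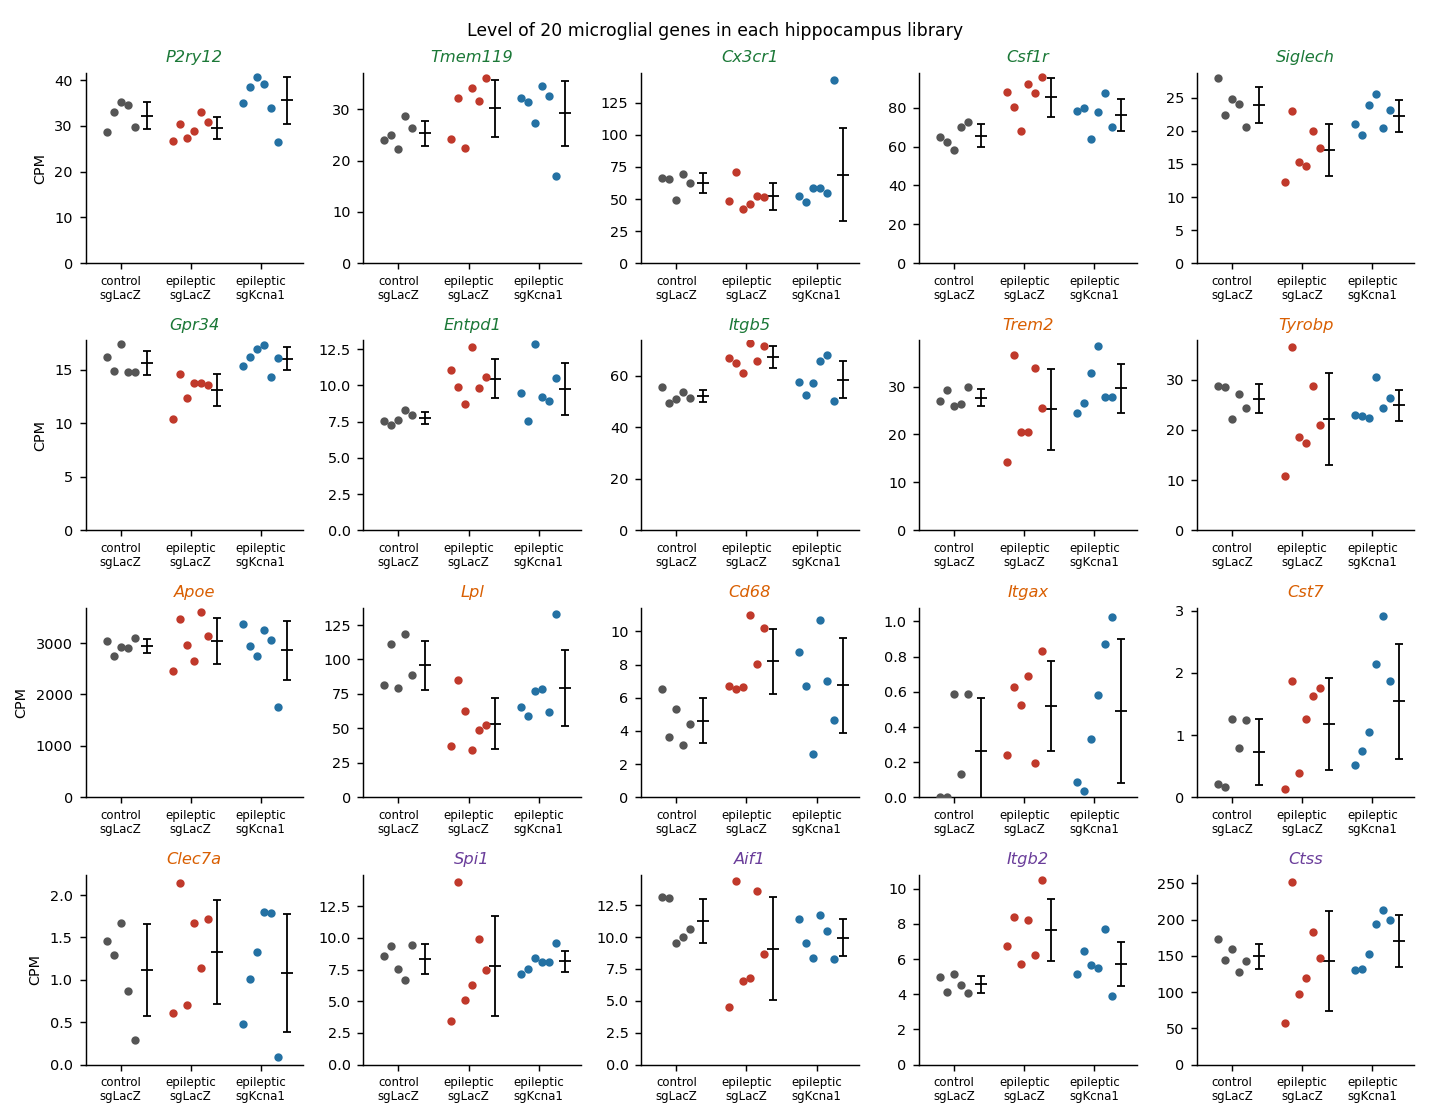
CPM (vertical axis, linear from 0) of 20 of the genes in each of the 17 libraries, by group, with titles coloured green for homeostatic, orange for activated and purple for general myeloid genes. Points are libraries in replicate order and the bars beside them are mean ± SD, cut at 0 for Itgax. Entpd1, Itgb5, Itgb2 and Gpr34 show no overlap between control and epileptic sgLacZ libraries, with Gpr34 alone lower in the latter. Trem2, Tyrobp, Spi1, Aif1 and Ctss spread to both sides of the control values.

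The first comparison, of epileptic sgLacZ with control sgLacZ libraries, asked how the hippocampus of epileptic mice differed from that of sham controls. Of the 48 microglial genes 6 changed, 4 of them upward and 2 downward. The integrin subunits Itgb2 and Itgb5, the growth factor receptor Csf1r and the ATP-degrading enzyme Entpd1 rose by 1.29-fold to 1.67-fold. The sialic acid receptor Siglech and the lipase Lpl fell by 0.49 and 0.84 on the log2 scale. The other 42 did not pass the test, among them P2ry12, Tmem119, Cx3cr1, Trem2, Tyrobp, Apoe and the disease-associated genes Itgax, Cst7 and Clec7a.

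The share of microglial genes called, 12.5%, was close to the 11.0% of all 17615 tested genes that passed the same threshold, an adjusted p under 0.05 by the quasi-likelihood test of edgeR, with 7.26% higher and 3.78% lower. With the 6 genes that other brain cells also make left out, 3 of 42 remained, which were Csf1r and Itgb2 (higher) and Siglech (lower). At an unadjusted p under 0.05 there were 15 of 48 microglial genes, 10 above and 5 below 0, and 34.7% of all tested genes, 18.8% above and 15.9% below. The median log2 fold change was 0.09 over the 48 genes, with 29 above 0 and 19 below, and 0.02 over all tested genes, of which 52.0% lay above 0. DESeq2 called 8 of the 48 genes, adding Cd68 and Gpr34, against 20.6% of all genes, and limma voom called 19, against 41.4%.

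Among the 16 homeostatic genes, 3 rose, 1 fell and 12 did not pass. Their median log2 fold change was 0.05, and their changes ranged from -0.49 to 0.44. Itgb5 pairs with an alpha subunit to bind vitronectin and is also made by other cells of the brain. It lay on chromosome 16 from 33829665 to 33949338 (GRCm38.p6, ENSMUSG00000022817). The control libraries had 49.6, 50.8, 51.5, 53.5 and 55.5 CPM of Itgb5, and the epileptic sgLacZ libraries ran from 61.0 through a median of 66.5 to 72.6. The groups did not overlap, and the log2 fold change was 0.37 (SE 0.09, edgeR quasi-likelihood test with Benjamini-Hochberg adjustment, adjusted p = 0.0330).

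Entpd1, the ectoenzyme CD39 that breaks down extracellular ATP, lay on chromosome 19 from 40612366 to 40741602 (ENSMUSG00000048120). Its control libraries had 7.23, 7.57, 7.60, 7.95 and 8.32 CPM, and the epileptic sgLacZ libraries ran from 8.73 through 10.2 to 12.6. Here too no library of one group reached into the other (log2 fold change 0.44, SE 0.14, edgeR adjusted p = 0.0490). This call lay at the threshold, and with DESeq2's size factors in edgeR the adjusted p was 0.0532. Groups without overlap were found in 4 of the 48 genes, Entpd1, Itgb5 and Itgb2 with epileptic libraries higher and Gpr34 with them lower, and in 4.39% of all tested genes (1.99% higher, 2.40% lower).

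Csf1r, the receptor on which microglial survival depends, had 58.1, 62.1, 65.1, 70.2 and 72.8 CPM in controls and from 68.1 through 87.8 to 95.8 CPM in epileptic sgLacZ libraries. The lowest epileptic library lay within the control values and the other 5 above them, and the log2 fold change was 0.38 (SE 0.10, edgeR adjusted p = 0.0356). The strand counts of Csf1r add up to 1.37 times its unstranded count, which shows that it shares bases with a gene on the other strand. With the sum of both strand counts its log2 fold change was 0.09 (SE 0.08, edgeR adjusted p = 0.469), so the call was not kept with this way of counting. That sum can also take in reads of the other gene, and which count is nearer to Csf1r was not tested.

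Siglech, a sialic acid-binding receptor that also signals through Tyrobp, lay on chromosome 7 from 55768154 to 55779448 (ENSMUSG00000051504). Control libraries had 20.6, 22.4, 24.1, 24.8 and 27.9 CPM, and epileptic sgLacZ libraries ran from 12.2 through 16.4 to 23.0. The highest epileptic library, replicate 5, lay among the controls and the other 5 below all of them (log2 fold change -0.49, SE 0.14, edgeR adjusted p = 0.0413). Gpr34, a receptor for lysophosphatidylserine, had a smaller difference of the same sign, with 14.8, 14.8, 14.9, 16.2 and 17.4 CPM in controls and from 10.4 through 13.7 to 14.6 in epileptic sgLacZ libraries. Its groups did not overlap, but the log2 fold change of -0.26 (SE 0.11) did not pass (edgeR adjusted p = 0.0936).

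The genes most used to name homeostatic microglia did not pass the test. P2ry12 had 28.7, 29.8, 33.0, 34.5 and 35.3 CPM in controls and 26.7 to 33.0 with a median of 29.7 in epileptic sgLacZ libraries, and the groups overlapped (log2 fold change -0.13, SE 0.11, edgeR adjusted p = 0.405). Tmem119 had 22.3, 24.0, 25.1, 26.3 and 28.8 CPM in controls and 22.5 to 36.1 with a median of 32.0 in epileptic sgLacZ libraries, 4 of which lay above every control (0.25, SE 0.16, edgeR adjusted p = 0.266). Cx3cr1, the fractalkine receptor, had 48.9, 62.5, 65.4, 66.3 and 69.5 CPM in controls and 42.0 to 71.3 with a median of 50.04 in epileptic sgLacZ libraries. Its values overlapped too (-0.27, SE 0.23, edgeR adjusted p = 0.422). So of these 3 markers, 2 had estimates below 0 and 1 above it. Olfml3, a secreted protein of resident microglia, was the remaining homeostatic gene with an unadjusted p under 0.05, at 0.34 (SE 0.15, edgeR adjusted p = 0.122).

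**Figure D2:**
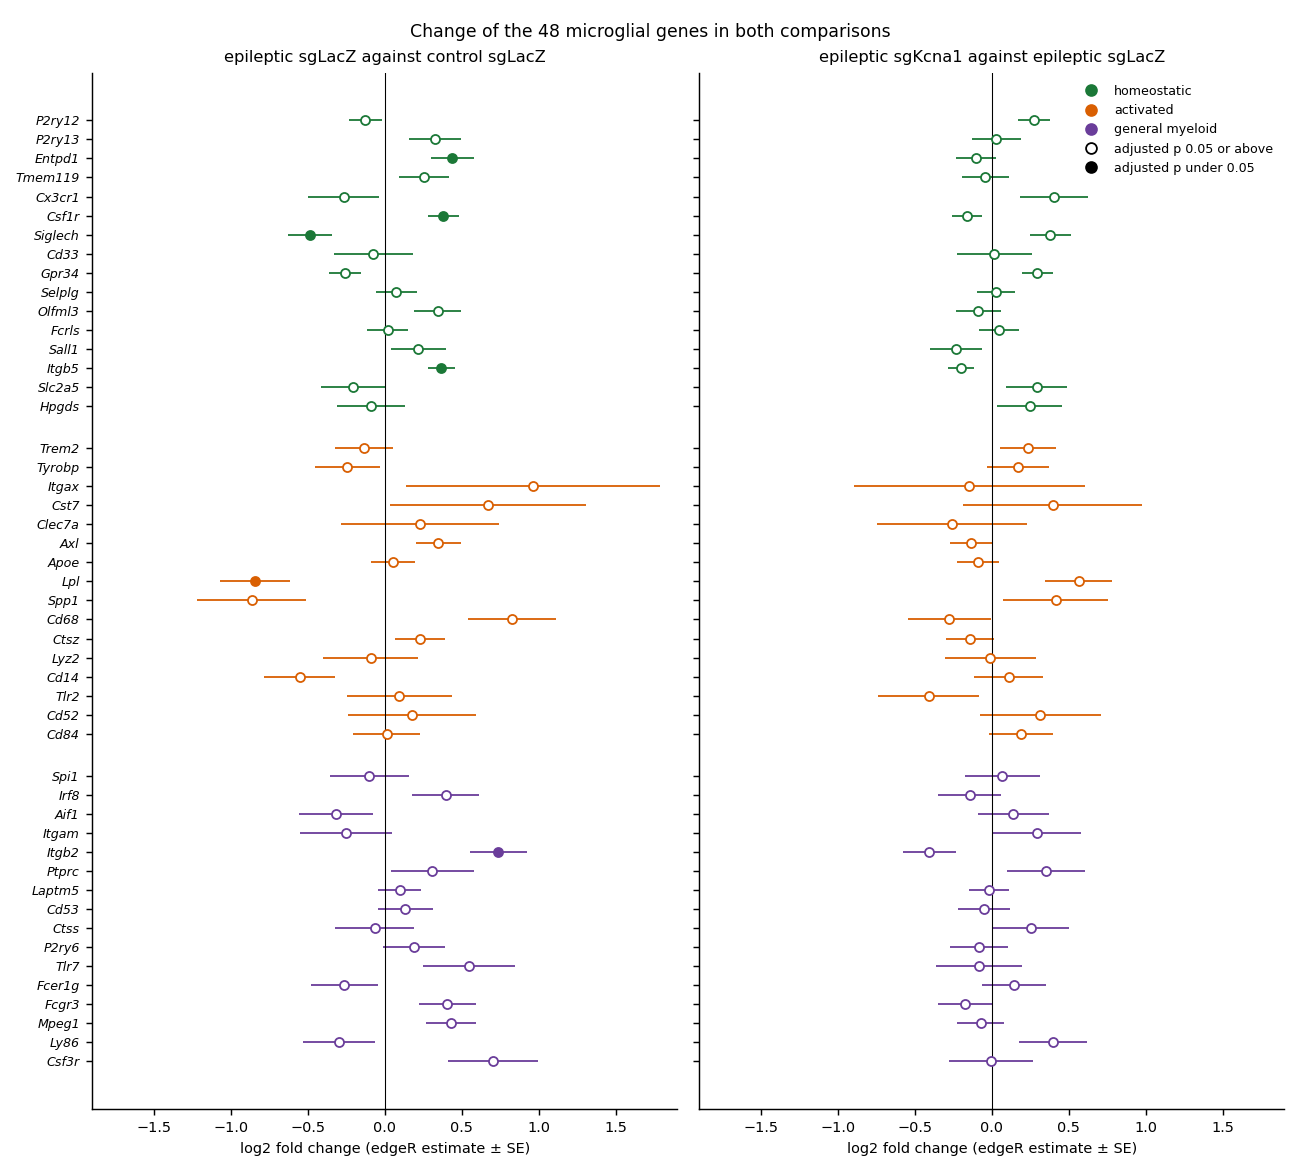
Log2 fold change (horizontal axis) of each of the 48 genes for epileptic sgLacZ against control sgLacZ (left) and for epileptic sgKcna1 against epileptic sgLacZ (right), as the edgeR estimate ± SE. Filled points passed an adjusted p of 0.05, which 6 genes did on the left and none on the right. The comparisons share the epileptic sgLacZ libraries, so opposite signs on the left and right are not independent.

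Among the 16 genes of activated microglia none rose, 1 fell and 15 did not pass. The median log2 fold change was 0.07, with 10 genes above 0 and 6 below. The gene that fell, Lpl, encodes lipoprotein lipase, which frees fatty acids from lipoproteins and is made by neurons as well as by activated microglia. It lay on chromosome 8 from 68880555 to 68906932 (ENSMUSG00000015568). Control libraries had 79.6, 81.8, 88.5, 111 and 118 CPM of Lpl, and epileptic sgLacZ libraries ran from 34.6 through 50.6 to 84.8. Replicate 5 lay within the controls and the other 5 epileptic libraries below all of them (log2 fold change -0.84, SE 0.23, edgeR adjusted p = 0.0364).

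The receptor pair at the head of the activated programme stayed within the spread between libraries. Trem2 had 25.9, 26.4, 26.9, 29.3 and 29.9 CPM in controls and 14.4 to 36.5 with a median of 23.1 in epileptic sgLacZ libraries, which lay on both sides of the controls (log2 fold change -0.14, SE 0.19, edgeR adjusted p = 0.633). Tyrobp had 22.2, 24.4, 27.2, 28.6 and 28.8 CPM in controls and 10.8 to 36.6 with a median of 19.8 in epileptic sgLacZ libraries. It also lay on both sides (-0.24, SE 0.21, edgeR adjusted p = 0.426). In both genes the lowest library was replicate 4 and the highest replicate 5.

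Cd68, a lysosomal glycoprotein used to stain phagocytic microglia, had the largest estimate above 0 among the activated genes after Itgax. Its control libraries had 3.13, 3.66, 4.42, 5.35 and 6.54 CPM, and the epileptic sgLacZ libraries ran from 6.52 through 7.40 to 11.0. All 6 lay above 4 of the 5 controls, and 5 of them above every control. The log2 fold change was 0.83 (SE 0.29), which did not pass (edgeR adjusted p = 0.0626), although it did in DESeq2 (adjusted p = 0.0314). Axl, a receptor for Gas6 that helps clear dying cells, differed by 0.35 (SE 0.15, edgeR adjusted p = 0.106).

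Genes that mark the late, disease-associated state had few reads, and Itgax was close to the limit of detection. Itgax, the integrin subunit CD11c, had 0, 0, 0.133, 0.585 and 0.589 CPM in controls and 0.198 to 0.835 with a median of 0.576 in epileptic sgLacZ libraries (log2 fold change 0.96, SE 0.83, edgeR adjusted p = 0.419). Its reads numbered 0 to 21 per library, those of Cst7 4 to 70 and those of Clec7a 1 to 43. Cst7, the protease inhibitor cystatin F, had 0.166, 0.216, 0.799, 1.24 and 1.25 CPM in controls and 0.136 to 1.88 with a median of 1.45 in epileptic sgLacZ libraries (0.67, SE 0.64, edgeR adjusted p = 0.469). Clec7a, the receptor dectin-1, had 0.294, 0.865, 1.29, 1.46 and 1.67 CPM in controls and 0.612 to 2.14 with a median of 1.40 in epileptic sgLacZ libraries (0.23, SE 0.51, edgeR adjusted p = 0.778). The groups overlapped for all 3 genes, and with standard errors of 0.51 to 0.83 a small change was not detectable in these libraries.

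Apoe, the lipid carrier, was the most abundant of the 48. Its control libraries had 2749, 2895, 2923, 3031 and 3103 CPM and the epileptic sgLacZ libraries 2448 to 3598 with a median of 3048 (log2 fold change 0.05, SE 0.14, edgeR adjusted p = 0.830). Spp1, the secreted phosphoprotein osteopontin, had 13.8, 15.7, 18.1, 25.8 and 28.0 CPM in controls and 6.02 to 20.1 with a median of 10.6 in epileptic sgLacZ libraries (-0.86, SE 0.35, edgeR adjusted p = 0.0951). Cd14, the co-receptor for bacterial lipopolysaccharide, had an estimate of -0.55 (SE 0.23, edgeR adjusted p = 0.102). Spp1 and Cd14 are named because they, with Lpl, were the 3 activated genes below 0 at an unadjusted p under 0.05.

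Of the 16 general myeloid genes 1 rose, none fell and 15 did not pass. Their median log2 fold change was 0.16. The gene that rose, Itgb2, encodes the beta subunit CD18 of the leukocyte integrins and lay on chromosome 10 from 77530329 to 77565708 (ENSMUSG00000000290). It had 4.06, 4.16, 4.53, 4.97 and 5.14 CPM in controls and ran from 5.70 through 7.49 to 10.5 CPM in epileptic sgLacZ libraries, so that the groups did not overlap (log2 fold change 0.74, SE 0.19, edgeR adjusted p = 0.0335). Its partner Itgam, the alpha subunit CD11b, had 10.9 to 17.7 CPM in controls and 4.80 to 22.9 in epileptic sgLacZ libraries and did not pass (-0.25, SE 0.30, edgeR adjusted p = 0.566). Mpeg1, Csf3r and Fcgr3 had estimates of 0.43, 0.70 and 0.40 at an unadjusted p under 0.05 and did not pass.

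Spi1 and Aif1 ranged widely between epileptic libraries. Spi1 encodes PU.1, the transcription factor without which myeloid cells do not form, and had 6.66, 7.56, 8.59, 9.35 and 9.42 CPM in controls and 3.47 to 14.4 with a median of 6.88 in epileptic sgLacZ libraries (log2 fold change -0.10, SE 0.26, edgeR adjusted p = 0.802). Aif1 encodes IBA1, the usual histological stain for microglia, and had 9.52, 9.98, 10.7, 13.1 and 13.1 CPM in controls and 4.49 to 14.4 with a median of 7.73 in epileptic sgLacZ libraries (-0.32, SE 0.24, edgeR adjusted p = 0.357). For both genes the lowest and the highest of all 17 libraries were epileptic sgLacZ replicates 4 and 5.

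The 48 genes thus differed more between epileptic libraries than between controls, and so did all tested genes. Averaged over the 16 activated genes, the log2 CPM was 3.47 ± 0.10 (SD, n = 5) in control libraries. It was 3.50 ± 0.45 (SD, n = 6) in the epileptic sgLacZ group, and in the epileptic sgKcna1 group 3.53 ± 0.34 (SD, n = 6). The homeostatic genes averaged 4.19 ± 0.07 (SD, n = 5), 4.25 ± 0.14 (SD, n = 6) and 4.31 ± 0.09 (SD, n = 6) in the same order. For the general myeloid genes the averages were 3.22 ± 0.06 (SD, n = 5), 3.33 ± 0.35 (SD, n = 6) and 3.40 ± 0.18 (SD, n = 6). In each list the means of the 3 groups lay within 1 SD of the most variable group.

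The median SD of log2 CPM between libraries was 0.21 over the 48 genes in control, 0.36 in epileptic sgLacZ and 0.32 in epileptic sgKcna1 libraries, and over all tested genes it was 0.22, 0.32 and 0.35. Within the epileptic sgLacZ group, replicate 4 was the lowest library for 25 of the 48 genes and replicate 5 the highest for 23. Over all tested genes there was no such direction, since replicate 4 was the lowest for 29.4% and the highest for 30.7%, and replicate 5 the highest for 28.5% and the lowest for 31.0%. Replicate 5 had 252 CPM of Ctss and replicate 4 had 57.4, with 128 to 173 in the controls. Among epileptic sgKcna1 libraries, replicate 11 was the highest for 21 of the 48 genes, against 13.8% of all genes. Replicate 12 was the lowest for 19 and the highest for 11 of the 48, against 37.2% and 32.2% of all genes, which is close to its background.

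**Figure D3:**
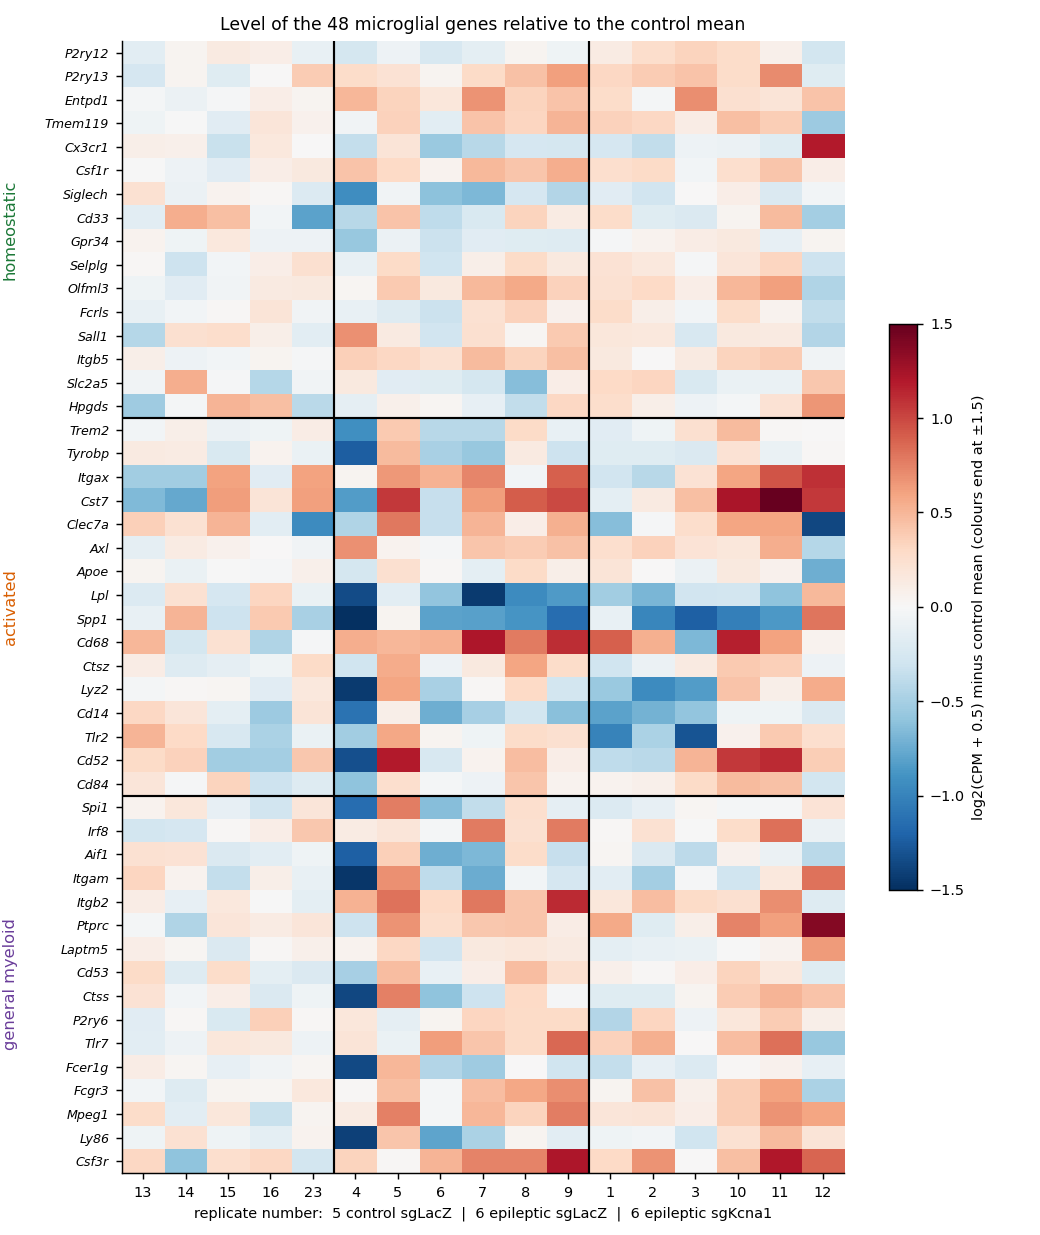
Level of the 48 genes (rows, by list) in each library (columns, by group and replicate number) as log2(CPM + 0.5) minus the mean of the 5 controls, red above and blue below it, with colours ending at ±1.5. Epileptic sgLacZ replicate 4 is blue over most activated genes and of mixed colour over the general myeloid genes, and replicate 5 is red over most genes of both lists, while the rows of Siglech, Lpl, Itgb2, Itgb5 and Entpd1 keep 1 colour over most of that group.

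**Figure D4:**
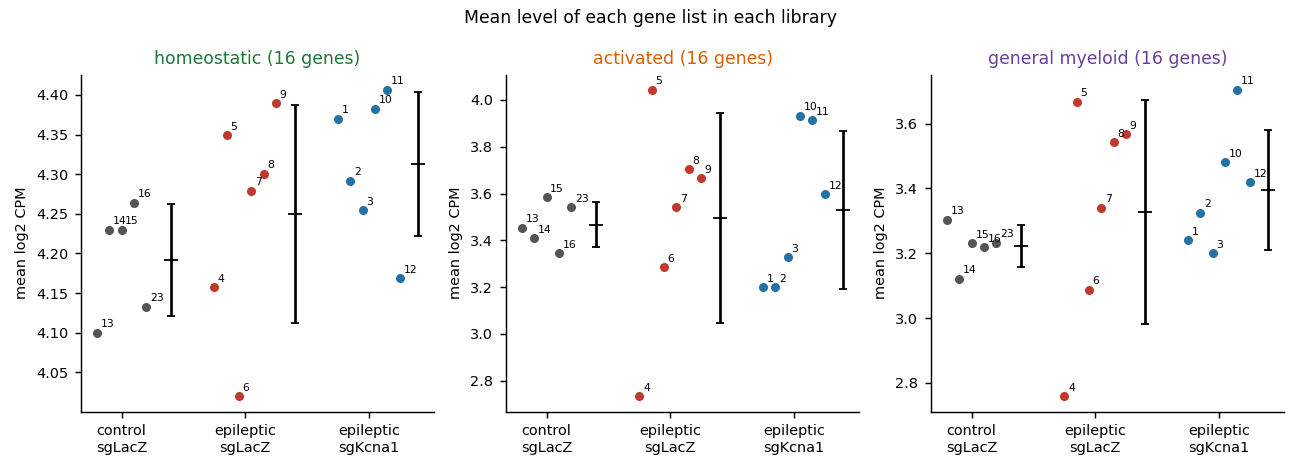
Mean log2 CPM (vertical axis, not from 0) over the 16 genes of each list in each library, labelled by replicate number, with mean ± SD of each group beside the points. Activated genes ran from 2.73 in epileptic sgLacZ replicate 4 to 4.04 in replicate 5, and the 5 controls from 3.35 to 3.58.

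The change between groups also went with the length of the transcript. Over all tested genes, those with a transcript under 1500 bases had a median log2 fold change of -0.33 between epileptic sgLacZ and control libraries, and those of 3500 bases or more had 0.20. Among the microglial genes the medians were -0.07 for the 13 short transcripts, which include Trem2, Tyrobp, Aif1, Fcer1g and Ly86, and 0.36 for the 12 long ones, which include Csf1r, Entpd1, Cx3cr1 and Lpl. Of the 12 long genes 9 had estimates above 0, as did 71.5% of all long genes, and of the 13 short genes 6 did, against 22.0% of all short genes. Siglech, with 2301 bases, and Lpl, with 4115, both fell.

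A length index, the median log2 level of short minus long transcripts relative to the control mean without the 48 genes, was between -0.14 and 0.22 in control, between -1.33 and 0.13 in epileptic sgLacZ and between -0.41 and -0.07 in epileptic sgKcna1 libraries. The index was -1.33 in epileptic sgLacZ replicate 4, where the 13 short microglial genes had a median of -1.30 relative to the control mean and the 12 long ones 0.33. With this index as a covariate, chosen after seeing the data, no gene of 17615 passed in this comparison (edgeR) and none of the 48, and at an unadjusted p under 0.05 there were 867 and 10. Under it the log2 fold change was 0.67 (SE 0.22) for Itgb2, 0.31 (SE 0.10) for Itgb5, 0.36 (SE 0.16) for Entpd1, -0.43 (SE 0.22) for Lpl and -0.17 (SE 0.11) for Siglech. Trem2, Tyrobp, Aif1 and Spi1 then had estimates of 0.27, 0.26, 0.19 and 0.44. The index was taken from these same counts and itself differed between the groups. Its mean was -0.00082 (SD 0.14) in control and -0.56 (SD 0.53) in epileptic sgLacZ libraries. Index and group therefore cannot be told apart in this fit. The part of transcript length in the differences between groups was not tested.

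**Figure D5:**
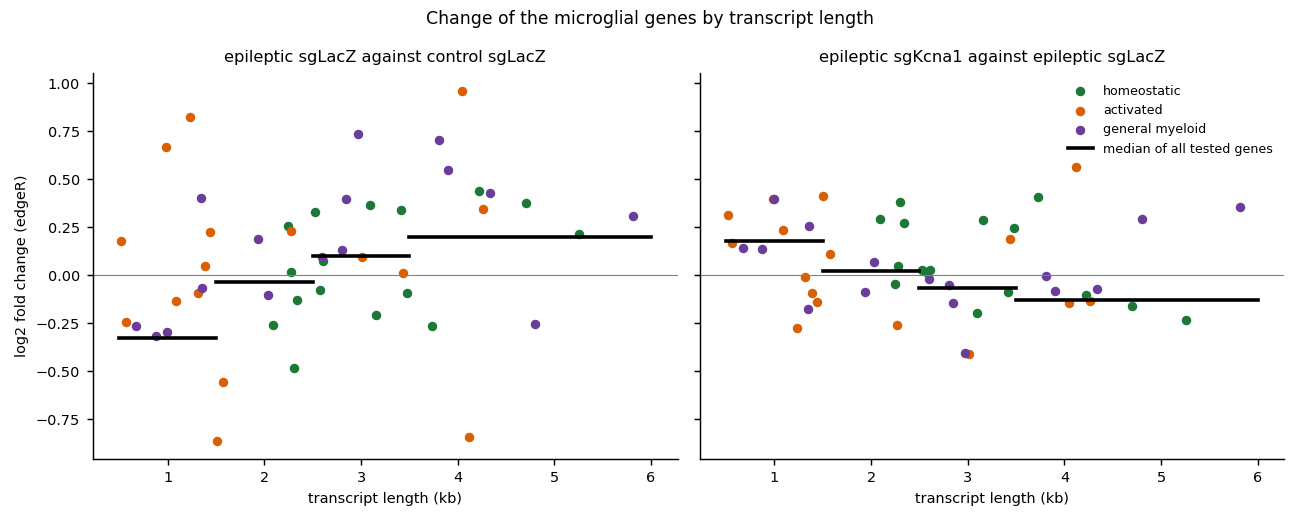
Log2 fold change (vertical axis, edgeR) of the 48 genes against the length of the longest transcript in kb (horizontal axis), for epileptic sgLacZ against control sgLacZ (left) and epileptic sgKcna1 against epileptic sgLacZ (right). Black lines are the medians of all tested genes under 1500 bases, from 1500 up to 2500, from 2500 up to 3500 and of 3500 bases or more, drawn to the edge of the plot, and they climb from -0.33 to 0.20 on the left and descend from 0.18 to -0.13 on the right.

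The calls depended on single libraries. None of the 6 genes passed when any one of control replicates 13, 14, 16 or 23 or epileptic sgLacZ replicates 4, 7 or 9 was left out, nor did any of the tested genes. Without control replicate 15 only Itgb2 of the 48 passed, and without epileptic sgLacZ replicate 5 there were 12, the 6 genes and Axl, Cd14, Cd68, Csf3r, Gpr34 and Spp1. With epileptic sgLacZ replicate 4 and epileptic sgKcna1 replicate 12 both left out, 9 of the 48 passed against 17.8% of all genes, with Cd68, Fcgr3, Mpeg1 and Olfml3 higher and Entpd1 no longer past the threshold. The direction of the 6 genes was the same in all of these fits.

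The stretch before the start site was read for the called genes that had one in the table of RefSeq promoters (GRCm38.p6), since many microglial genes are targets of PU.1, which binds purine-rich sites with the core GAGGAA. Of the 48 genes 36 had 46 windows of 250 bases before a start site, and no window was used for Tmem119, Csf1r, Gpr34, Selplg, Tyrobp, Lpl, Cd14, Cd52, Spi1, Itgb2, P2ry6 and Tlr7. The letters GAGGAA on either strand were in 22 of the 46 windows (47.8%), belonging to 19 genes, and in 23.3% of all 32851 windows. The longer GAGGAAGT, which contains them, was in 2 windows (4.35%, against 2.44% of all) and the E-box CACGTG in 2 (4.35%, against 6.02%). The composite element of PU.1 with interferon regulatory factors was in 2 windows, both of 1 gene (4.35%, against 2.30%). Windows of the 3 called genes are shown with that of Itgam, which like Entpd1 held the core more than once. Capitals mark GAGGAA or its reverse complement TTCCTC.

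Entpd1, first start site, chr19:40612116-40612365, plus strand: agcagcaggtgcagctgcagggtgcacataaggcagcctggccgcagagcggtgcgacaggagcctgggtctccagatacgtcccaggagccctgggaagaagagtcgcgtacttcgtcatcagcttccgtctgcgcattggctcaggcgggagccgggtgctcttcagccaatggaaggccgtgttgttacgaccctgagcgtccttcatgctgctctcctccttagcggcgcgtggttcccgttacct
Entpd1, second start site, chr19:40659520-40659769, plus strand: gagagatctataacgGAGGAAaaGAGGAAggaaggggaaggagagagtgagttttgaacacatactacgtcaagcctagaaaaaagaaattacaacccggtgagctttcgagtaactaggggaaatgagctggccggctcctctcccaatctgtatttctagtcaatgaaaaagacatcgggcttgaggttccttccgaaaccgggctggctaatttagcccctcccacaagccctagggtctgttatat
Siglech, chr7:55767934-55768183, plus strand: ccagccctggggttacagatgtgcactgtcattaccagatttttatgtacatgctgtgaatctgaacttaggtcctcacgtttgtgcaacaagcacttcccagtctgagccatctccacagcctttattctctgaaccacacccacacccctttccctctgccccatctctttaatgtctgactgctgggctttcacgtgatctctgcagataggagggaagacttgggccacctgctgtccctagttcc
Itgb5, chr16:33829415-33829664, plus strand: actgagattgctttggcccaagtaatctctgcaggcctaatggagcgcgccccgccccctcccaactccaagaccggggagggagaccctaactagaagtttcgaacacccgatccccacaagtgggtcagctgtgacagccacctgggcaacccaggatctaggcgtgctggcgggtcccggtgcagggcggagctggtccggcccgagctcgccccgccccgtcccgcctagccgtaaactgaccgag
Itgam, chr7:128062390-128062639, plus strand: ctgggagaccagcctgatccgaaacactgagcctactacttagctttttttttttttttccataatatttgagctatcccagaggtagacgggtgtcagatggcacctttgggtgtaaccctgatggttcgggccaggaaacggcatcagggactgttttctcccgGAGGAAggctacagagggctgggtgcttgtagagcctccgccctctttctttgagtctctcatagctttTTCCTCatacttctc

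Entpd1, which rose, has a pair of matches before its second start site and none before the first, and Siglech, which fell, and Itgb5, which rose, have none in these windows. The Siglech window ends at 55768183, past the gene start of 55768154 given above, so its last bases lie within the gene as given there. A match is a run of letters and was not tested for binding.

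The other genes of the microglial pathways were given by list. Beside their counts stand the 11.0% of all tested genes that passed in this comparison, 7.26% higher and 3.78% lower. Of the 9 signals that act on microglia, 1 rose and none fell between control and epileptic sgLacZ libraries, and the median log2 fold change was 0.06. The gene that rose was Gas6, the ligand of Axl and Mertk, with 86.9 ± 14.2 CPM (SD, n = 5) in control and 129 ± 20.4 (SD, n = 6) in epileptic sgLacZ libraries (0.57, SE 0.13, edgeR adjusted p = 0.0320), but its strand counts add up to 1.16 times the unstranded count, so it shares bases with another gene. Csf1, a ligand of Csf1r, had 20.8 ± 2.64 (SD, n = 5) and 26.0 ± 3.76 CPM (SD, n = 6), and its difference did not pass (0.32, SE 0.14, edgeR adjusted p = 0.104).

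Of the 22 tested receptors and signalling genes 2 rose and none fell, with a median of 0.12. They were Inpp5d, the phosphatase SHIP1 that restrains signalling below Trem2 (0.49, SE 0.11, edgeR adjusted p = 0.0327), and Nckap1l, a haematopoietic subunit of the actin-regulating WAVE complex (0.87, SE 0.22, edgeR adjusted p = 0.0345). Inpp5d had 6.13 ± 0.51 CPM (SD, n = 5) in control and 8.61 ± 0.76 (SD, n = 6) in epileptic sgLacZ libraries, and Nckap1l had 4.20 ± 0.30 (SD, n = 5) and 7.68 ± 1.67 (SD, n = 6). Neither gene had overlapping groups. Both have long transcripts, of 4937 and 4717 bases.

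Of a list of 21 further genes, homeostatic and general myeloid together, 1 rose, Golm1 (2.24, SE 0.51, edgeR adjusted p = 0.0323). Its strand counts add up to 3.19 times its unstranded count, and its value is uncertain for that reason. Rgs10, a regulator of G protein signalling with a transcript of 880 bases, had an estimate of -0.57 (SE 0.19, edgeR adjusted p = 0.0606). None of the 20 tested further genes of the activated state passed (edgeR, 4 at an unadjusted p under 0.05, against 34.7% of all tested genes), and their median was -0.10. The closest were Ctsb, the lysosomal protease cathepsin B (0.26, SE 0.08, edgeR adjusted p = 0.0510), and Gpnmb, a glycoprotein of lipid-laden phagocytes (0.87, SE 0.31, edgeR adjusted p = 0.0684).

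The second comparison, of epileptic sgKcna1 with epileptic sgLacZ libraries, set the guide to Kcna1 against the control guide in epileptic mice, and Kcna1 itself was not shown to differ between them in these counts. None of the 48 genes passed the test of edgeR, nor did any of the 17615 genes (0% called), and at an unadjusted p under 0.05 there were 6 of the 48, 4 above and 2 below 0, and 19.2% of all genes (8.69% above, 10.5% below). No gene of the 48 had groups without overlap, and 0.483% of all genes did. DESeq2 called none of the 48 and 0.812% of all genes, and limma voom none of the 48 and 0.0681% of all genes. The median log2 fold change was 0.03 for homeostatic, 0.05 for activated and -0.01 for general myeloid genes, with 25 of the 48 above 0 and 49.3% of all genes.

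The smallest p belonged to Gpr34, with 14.3 to 17.3 CPM and a median of 16.2 in epileptic sgKcna1 libraries against 10.4 to 14.6 and a median of 13.7 in epileptic sgLacZ libraries. The groups overlapped by the lowest sgKcna1 and the highest sgLacZ library, and the log2 fold change was 0.29 (SE 0.10, edgeR adjusted p = 0.213). Siglech had 19.4 to 25.7 CPM with a median of 22.1 against 12.2 to 23.0 with a median of 16.4 (0.38, SE 0.14, edgeR adjusted p = 0.213). P2ry12 had 26.4 to 40.6 CPM with a median of 36.8 against 26.7 to 33.0 with a median of 29.7 (0.27, SE 0.10, edgeR adjusted p = 0.216). For P2ry12 the lowest sgKcna1 library was replicate 12, and the other 5 lay above all epileptic sgLacZ libraries.

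Lpl had 58.7 to 133 CPM with a median of 71.5 in epileptic sgKcna1 libraries against 34.6 to 84.8 with a median of 50.6 (0.56, SE 0.22, edgeR adjusted p = 0.218). Itgb5 had 50.2 to 68.1 CPM with a median of 57.3 against 61.0 to 72.6 with a median of 66.5 (-0.20, SE 0.08, edgeR adjusted p = 0.230). Itgb2 had 3.92 to 7.70 CPM with a median of 5.56 against 5.70 to 10.5 with a median of 7.49 (-0.41, SE 0.17, edgeR adjusted p = 0.235). These genes had passed in the first comparison with the opposite sign, and the comparisons share the epileptic sgLacZ libraries, so the opposite sign is no separate evidence. Without epileptic sgLacZ replicate 5, Lpl (adjusted p = 0.0431) and Siglech (adjusted p = 0.0421) passed in edgeR, and 1508 of all genes did.

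Cx3cr1 ran from 47.9 through 56.4 to 143 CPM in epileptic sgKcna1 libraries, and its log2 fold change was 0.41 (SE 0.22, edgeR adjusted p = 0.302). The highest value came from replicate 12, and without that library the log2 fold change was 0.06 (edgeR adjusted p = 0.806). Tmem119 ran from 17.1 through 31.8 to 34.5 CPM, with replicate 12 the lowest (-0.04, SE 0.15, edgeR adjusted p = 0.883). Csf1r ran from 63.8 through 78.1 to 87.4 CPM (-0.16, SE 0.10, edgeR adjusted p = 0.333) and overlapped the epileptic sgLacZ libraries.

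Among activated genes Trem2 ran from 24.6 through 27.9 to 38.5 CPM in epileptic sgKcna1 libraries (0.23, SE 0.18, edgeR adjusted p = 0.442) and Tyrobp from 22.4 through 23.7 to 30.5 (0.17, SE 0.20, edgeR adjusted p = 0.640). Their 6 libraries lay closer together than those of the epileptic sgLacZ group. Cd68 ran from 2.61 through 6.87 to 10.7 CPM (-0.28, SE 0.27, edgeR adjusted p = 0.553) and Apoe from 1762 through 3001 to 3360 (-0.09, SE 0.14, edgeR adjusted p = 0.715). Itgax ran from 0.0373 to 1.03 CPM (-0.15, SE 0.75), Cst7 from 0.527 to 2.91 (0.39, SE 0.58) and Clec7a from 0.0932 to 1.80 (-0.26, SE 0.49), with adjusted p of 0.922, 0.71 and 0.777 in edgeR. Of the general myeloid genes Spi1 ran from 7.11 through 8.10 to 9.60 CPM (0.07, SE 0.25, edgeR adjusted p = 0.887) and Aif1 from 8.30 through 9.98 to 11.7 (0.14, SE 0.23, edgeR adjusted p = 0.744).

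The third comparison set epileptic sgKcna1 against control sgLacZ libraries, which differ in both kainic acid and guide. None of the 48 genes and none of the 17615 genes passed in edgeR (0% called). At an unadjusted p under 0.05 there were 6 of the 48, all with estimates above 0, and 6.77% of all genes (4.29% above, 2.48% below). Over all genes 1.13% had groups without overlap. Estimates above 0 were found for 34 of the 48 and 52.8% of all genes. DESeq2 called none of the 48 and 0.221% of all genes. The 3 smallest p belonged to Ptprc, the leukocyte phosphatase CD45, to Entpd1 and to Csf3r, the receptor for granulocyte colony stimulating factor.

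Ptprc had 2.20, 3.13, 3.53, 3.71 and 3.72 CPM in controls and 2.76 to 9.14 with a median of 5.08 in epileptic sgKcna1 libraries, with the highest value in replicate 12 (log2 fold change 0.66, SE 0.27, edgeR adjusted p = 0.695). Entpd1 had 7.57 to 12.8 CPM with a median of 9.34 in epileptic sgKcna1 libraries (0.33, SE 0.14, edgeR adjusted p = 0.695), and 5 of the 6 lay above all controls. Csf3r had 1.25, 1.71, 2.67, 2.80 and 2.81 CPM in controls and 2.16 to 5.62 with a median of 3.44 (0.70, SE 0.29, edgeR adjusted p = 0.695). The groups overlapped for all 3 genes. Over the lists the median log2 fold change was 0.14 for homeostatic, 0.03 for activated and 0.15 for general myeloid genes, against 0.02 for all tested genes.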

How the data were processed

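RNA-seq was done on 17 hippocampal samples. Reads were aligned by the authors to mm10 with STAR 2.7. They deposited raw counts of reads per gene, unstranded and for each strand, 1 list per library. The strand totals had ratios of 0.994 to 0.998, and unstranded counts were taken. On strand the labels and the study's methods differ, the former naming a kit that does not keep it and the latter one that does. Pairs of libraries within a group differed by 8.67 to 220 times sampling noise (chi-square over degrees of freedom, 40 pairs), so none was a copy.

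The counts were filtered with filterByExpr, scaled by TMM and tested in R 4.3.3 with edgeR 4.0.16 (quasi-likelihood test, two-sided, all 17 libraries in a single fit, a coefficient per group, Benjamini-Hochberg adjustment over 17615 genes, threshold 0.05). The SE was computed from the fold change and its F statistic. Log2 CPM of the list averages used a prior count of 2. Alternatives were DESeq2 1.42.0 (which the study used), limma 3.58.1 with voom quality weights, other scaling, no filter, summed strands, covariates, the 2 groups alone and each library left out. The sex covariate was read from the counts, as female where Xist exceeded the Y-linked genes. Called female were control replicates 16 and 23, epileptic sgLacZ replicates 4, 5, 6 and 7, and epileptic sgKcna1 replicates 11 and 12. Sex was thus uneven between the groups. Some libraries held both, such as epileptic sgKcna1 replicate 11 with 110 CPM (not TMM-scaled) of Xist and 9.76 of Y-linked genes. The code was tested on simulated data. Transcript length was that of the longest GENCODE protein-coding transcript of the older mm9 annotation (83.0% of tested genes), and coordinates were looked up by symbol in RefSeq. Always named were P2ry12, Tmem119, Cx3cr1, Csf1r, Trem2, Tyrobp, Itgax, Cst7, Clec7a, Apoe, Cd68, Aif1 and Spi1, with the 4 further genes of smallest p in each of the first 2 comparisons, the 3 of smallest p in the last, the 2 of smallest p in each pathway list, and any gene on which a count of 5 or fewer fell. Spp1, Itgam, Ctss and Axl were also given values after these were seen. The members and lists were chosen with earlier results of these data known. The floor of 3 reads covers counting error alone, as reads carry no molecular identifiers.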

Additional observations from a re-analysis of the deposited data

Results flagged for a closer look

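Of the values named, 4 lay farther from the rest of their group than Dixon's criterion allows, out of 75 groups of values screened (21 named genes and 4 list averages in 3 groups), where chance alone flags about 1 in 20. All 4 were in epileptic sgKcna1 replicate 12, the shallowest library with the largest share of unmapped reads. Cx3cr1 had 142.6 CPM there against 47.9 to 58.9 in the other 5 libraries, and Lpl had 132.8 against 58.7 to 78.3. Tmem119 had 17.06 CPM against 27.3 to 34.5, and Apoe had 1762 against 2755 to 3360. The markers of oligodendrocytes summed to 10543 CPM in this library, the highest of the 17, and those of endothelial cells to 332. Their part in these values was not tested.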

How the results depend on the processing

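Between epileptic sgLacZ and control libraries, the 1943 genes called became 3634 with DESeq2, 7301 with limma voom, 449 with percent unmapped and 517 with sex as a covariate, 3045 with the 2 groups alone, 0 with the length index and 3106 without both epileptic sgLacZ replicate 4 and epileptic sgKcna1 replicate 12 (the last 2 chosen after seeing the data), and 0 to 5525 with 1 library left out. The 6 microglial genes became 19 with limma voom, 1 with percent unmapped (Lpl), 3 with sex, 0 with the length index and 3 without genes that other brain cells make, and 0 to 12 with 1 library left out. For epileptic sgKcna1 against epileptic sgLacZ, calls over all genes were 143 with DESeq2, 12 with limma voom and 1 with no filter (0 to 1508 with 1 library left out) and over the 48 genes 0 to 2. Against control they were 39 with DESeq2, 71 with limma voom, 266 with percent unmapped and 88 without both libraries (0 to 14 with 1 left out). The list averages, in log2 CPM, moved with summed strands to 4.08 (homeostatic, control), 4.20 (homeostatic, epileptic sgKcna1), 3.32 (activated, control) and 3.07 (general myeloid, control), and without genes of other brain cells the activated average was 2.34, 2.49 and 2.48 in the 3 groups. These moves are by construction, since other reads or genes were averaged.

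Log2 fold changes of genes that did not pass turned sign as follows. Against control, with percent unmapped, Cx3cr1 was 0.0622, Apoe -0.0236 and Spi1 0.10. With the length index Cx3cr1 was 0.0066, Trem2 0.27, Tyrobp 0.26, Aif1 0.19 and Spi1 0.44, and without both libraries Spi1 was 0.0477. With 1 library left out Clec7a ran from -0.0059 to 0.42, Apoe from -0.0043 to 0.10 and Spi1 from -0.37 to 0.0519. Between the epileptic groups, Tmem119 was 0.0658 with limma voom, 0.0824 with percent unmapped and 0.009 without both libraries, and Clec7a 0.003 with limma voom. With percent unmapped Cx3cr1 was -0.0895, Tyrobp -0.0231 and Spi1 -0.17, with the length index Tyrobp was -0.0935, Aif1 -0.10 and Spi1 -0.21, and without both libraries Spi1 was -0.14. With 1 left out Tmem119 ran from -0.11 to 0.0637, Itgax from -0.46 to 0.13, Apoe from -0.14 to 0.0112 and Spi1 from -0.0829 to 0.34. The cause was not tested. No paired analysis was possible because the groups share no replicate numbers. The labels do not say that each library came from its own mouse, so p-values measure only the spread between these libraries, which may be technical in part.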

Other observations

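Among the other cell types of the hippocampus, the astrocyte markers Gfap, the intermediate filament of reactive astrocytes, and Aldh1l1 rose between control and epileptic sgLacZ libraries, 2 of 8 astrocyte markers (edgeR quasi-likelihood test). Over all tested genes 11.0% passed in this comparison, 7.26% higher and 3.78% lower. Gfap had a log2 fold change of 0.60 (adjusted p = 0.0446) and Aldh1l1 of 0.33 (adjusted p = 0.0391), and the strand counts of Aldh1l1 add up to 1.28 times its unstranded count. The 8 astrocyte markers summed to 2831 to 3225 CPM in control and 3114 to 3850 in epileptic sgLacZ libraries. None of the 6 markers each of oligodendrocytes, endothelial cells, pericytes and fibroblasts, and choroid plexus, nor of the 4 of oligodendrocyte precursors, passed (edgeR). At an unadjusted p under 0.05 there was 1 of each list except choroid plexus, which had none, against 34.7% of all tested genes. The oligodendrocyte markers summed to 6516 to 9402 CPM with a median of 7962 in control and to 4936 to 7239 with a median of 5686 in epileptic sgLacZ libraries. Choroid plexus markers summed to 1199 to 12516 CPM in control and 4421 to 11447 in epileptic sgLacZ libraries. The red cell marker Hba-a1, the ependymal marker Tmem212 and the neuronal neurofilament gene Nefl, whose strand counts add up to 1.26 times its unstranded count, fell, and the neuronal glutamate transporter gene Slc17a7 rose. They belong to lists of 3 tested red cell markers, 5 ependymal markers and 10 neuronal markers. The neuronal markers summed to 6475 to 6895 CPM with a median of 6767 in control libraries. In epileptic sgLacZ libraries they summed to 6162 to 7280 with a median of 6648.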
